A study of Mus musculus with 2 samples.

Results

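The CXC chemokine system was examined through 10 genes of the 55401 in the files: the ligands Cxcl9, Cxcl10, Cxcl16, Cxcl12, Cxcl1 and Cxcl14 and the receptors Cxcr3, Cxcr4, Cxcr6 and Ackr3. They were taken by name, and all 10 were present in the deposited tables. The material was dissociated mouse brain from which cells carrying ACSA-2, a surface antigen of astrocytes, had been collected with magnetic beads before droplet-based single-cell RNA sequencing. The metastasis library came from brains of mice injected intracranially with the mouse melanoma line B16/F10-BrM. The naive library came from brains that its title calls naive. Both libraries were pools of 3 brains from C57BL/6J mice aged 10 weeks, so the animals within a pool cannot be told apart. No interval between injection and dissection and no sex of the mice is given in the sources used here.

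CXC chemokines are small secreted proteins that steer leukocytes along concentration gradients by way of receptors coupled to inhibitory G proteins. Cxcl9 and Cxcl10, which interferon-gamma induces, bind Cxcr3 on T and natural killer cells, and Cxcl16, a ligand made as a membrane protein, binds Cxcr6 on similar cells. Cxcl12 signals through Cxcr4, while the atypical receptor Ackr3 takes it up and removes it, and in brain Cxcl12 is known from vessels and meninges. Cxcl1 attracts neutrophils through Cxcr2, and Cxcl14 is a conserved family member whose receptor is still debated.

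In GENCODE M21 on GRCm38, Cxcl9 (chr5:92321347-92328079, minus strand) and Cxcl10 (chr5:92346638-92348889, minus strand) were neighbours 18558 bases apart, and Cxcl1 lay on the same chromosome (chr5:90891241-90893115, plus strand). The 250 bases before the start of these 3 ligand genes are shown, from RefSeq on GRCm38.p6, and all 3 were higher in metastasis over all kept cells. The windows are chr5:92328080-92328329 on the minus strand for Cxcl9, chr5:92348890-92349139 on the minus strand for Cxcl10 and chr5:90890995-90891244 on the plus strand for Cxcl1, each printed 5′ to 3′ along the gene. Capitals mark matches to GAAANNGAA, the letters of interferon-stimulated response elements, and to GGGANNTTC, letters of NF-kB sites, on either strand.
Cxcl9: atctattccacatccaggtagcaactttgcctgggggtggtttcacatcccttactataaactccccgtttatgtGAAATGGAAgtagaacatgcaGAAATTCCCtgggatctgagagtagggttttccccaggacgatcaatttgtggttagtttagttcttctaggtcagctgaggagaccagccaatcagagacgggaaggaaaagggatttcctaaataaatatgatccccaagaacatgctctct
Cxcl10: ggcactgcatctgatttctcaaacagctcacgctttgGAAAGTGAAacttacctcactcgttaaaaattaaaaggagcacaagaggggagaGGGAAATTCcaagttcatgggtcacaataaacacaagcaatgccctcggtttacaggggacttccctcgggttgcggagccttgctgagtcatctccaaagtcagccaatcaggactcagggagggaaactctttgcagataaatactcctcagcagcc
Cxcl1: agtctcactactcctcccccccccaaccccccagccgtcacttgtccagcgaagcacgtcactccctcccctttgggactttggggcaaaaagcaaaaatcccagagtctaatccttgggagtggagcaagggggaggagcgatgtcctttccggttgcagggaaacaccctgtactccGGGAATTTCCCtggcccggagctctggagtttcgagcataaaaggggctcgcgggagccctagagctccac
The search covered both strands and also TTCNNNGAA, the letters of interferon-gamma activated sites. Counted back from the start, GAAANNGAA lay at bases 175 to 167 in Cxcl9 and 213 to 205 in Cxcl10, and GGGANNTTC at bases 154 to 146 in Cxcl9, on the reverse strand, and 159 to 151 in Cxcl10. In Cxcl1 a forward match at bases 71 to 63 overlapped a reverse match at bases 69 to 61. Of the 10 genes, 9 matched the RefSeq table by symbol, all but Cxcl16. GAAANNGAA was found in 3 of these 9, the third being Cxcl14, TTCNNNGAA in Cxcl14 only, and GGGANNTTC in 3. Cxcr3, which was also higher in metastasis over all kept cells and is not shown, matched none of them. Over all 32851 promoters in windows of the same length, 7.13% held GAAANNGAA, 7.02% held TTCNNNGAA and 3.23% held GGGANNTTC.

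The other members were placed at chr11:70453983-70459984 (Cxcl16, minus strand), chr6:117168535-117181367 (Cxcl12, plus strand), chr13:56288643-56296551 (Cxcl14, minus strand), chrX:101731535-101734269 (Cxcr3, minus strand), chr1:128588199-128592293 (Cxcr4, minus strand), chr9:123806475-123811760 (Cxcr6, plus strand) and chr1:90203980-90216751 (Ackr3, plus strand). Genes on the opposite strand overlapped Cxcl10 (Art3), Cxcl16 (Zmynd15, over 552 bases) and Cxcr6 (Fyco1, over its whole 5286 bases). How strand was handled in the counting is not given in the sources used here, so reads of these pairs could be exchanged.

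The files held 89193669 UMIs (unique molecular identifiers, the count of RNA molecules read) in metastasis versus 69445557 UMIs in naive, and 13282 and 13310 cells passed the limits, with medians of 2830.5 and 2773 UMIs per cell. Each condition was 1 library. The condition and the library therefore cannot be told apart, no test was possible, and all intervals are 95% intervals that cover counting error only. The titles of both records were exchanged by the submitters after release, and the present titles define the groups. The melanocyte gene Pmel had 174742 UMIs in metastasis versus 4774 UMIs in naive, and the melanoma-like class held 711 cells in metastasis, against 18 in naive. The kept cells of both libraries shared 49 barcodes, where 26.0 would come from independent draws. Despite the beads, astrocyte-like cells made up 2.56% of kept cells in metastasis and 7.94% in naive, and oligodendrocyte-like cells, which serve below as a class that should lack most of these genes, 40.1% and 41.6%. Levels are CPM, the UMIs of a gene scaled to the same total of UMIs in every class, set beside the free RNA of barcodes with 100 to 300 UMIs, which were empty or nearly empty droplets. A gene was counted as above free RNA when the 95% interval of the ratio of both levels lay above 1. A gene can lie under the free RNA level and still be made by the class, since free RNA is only part of a cell's UMIs.

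Over all kept cells the interferon-induced ligands stood far higher in metastasis. Cxcl9 had 9290 UMIs in metastasis versus 12 UMIs in naive, for a log2 ratio of 9.10 (8.30 to 10.1). Cxcl10 had 8798 and 512 UMIs (log2 ratio 3.61, 3.48 to 3.74), and Cxcl16 had 4693 and 256 UMIs (3.70, 3.52 to 3.89). Cxcl1 was the fourth ligand that was higher, with 442 UMIs in metastasis versus 19 UMIs in naive (4.05, 3.39 to 4.79). Cxcl12 and Cxcl14 were lower, at 1333 UMIs in metastasis versus 2172 UMIs in naive for Cxcl12 (-1.20, -1.30 to -1.10) and 1086 and 2038 UMIs for Cxcl14 (-1.40, -1.51 to -1.30). Among the receptors, Cxcr3 was higher (141 UMIs in metastasis versus 27 UMIs in naive, 1.89), while Cxcr4 (2323 and 1779 UMIs, -0.11), Ackr3 (837 and 769 UMIs, -0.37) and Cxcr6 (60 and 63 UMIs, -0.56) lay within 2-fold, and their sign turned under other settings. These ratios mix levels within cells with the makeup of the libraries, since the melanoma-like cells alone held 21259430 UMIs in metastasis. The same genes are therefore given class by class.

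**Figure D1:**
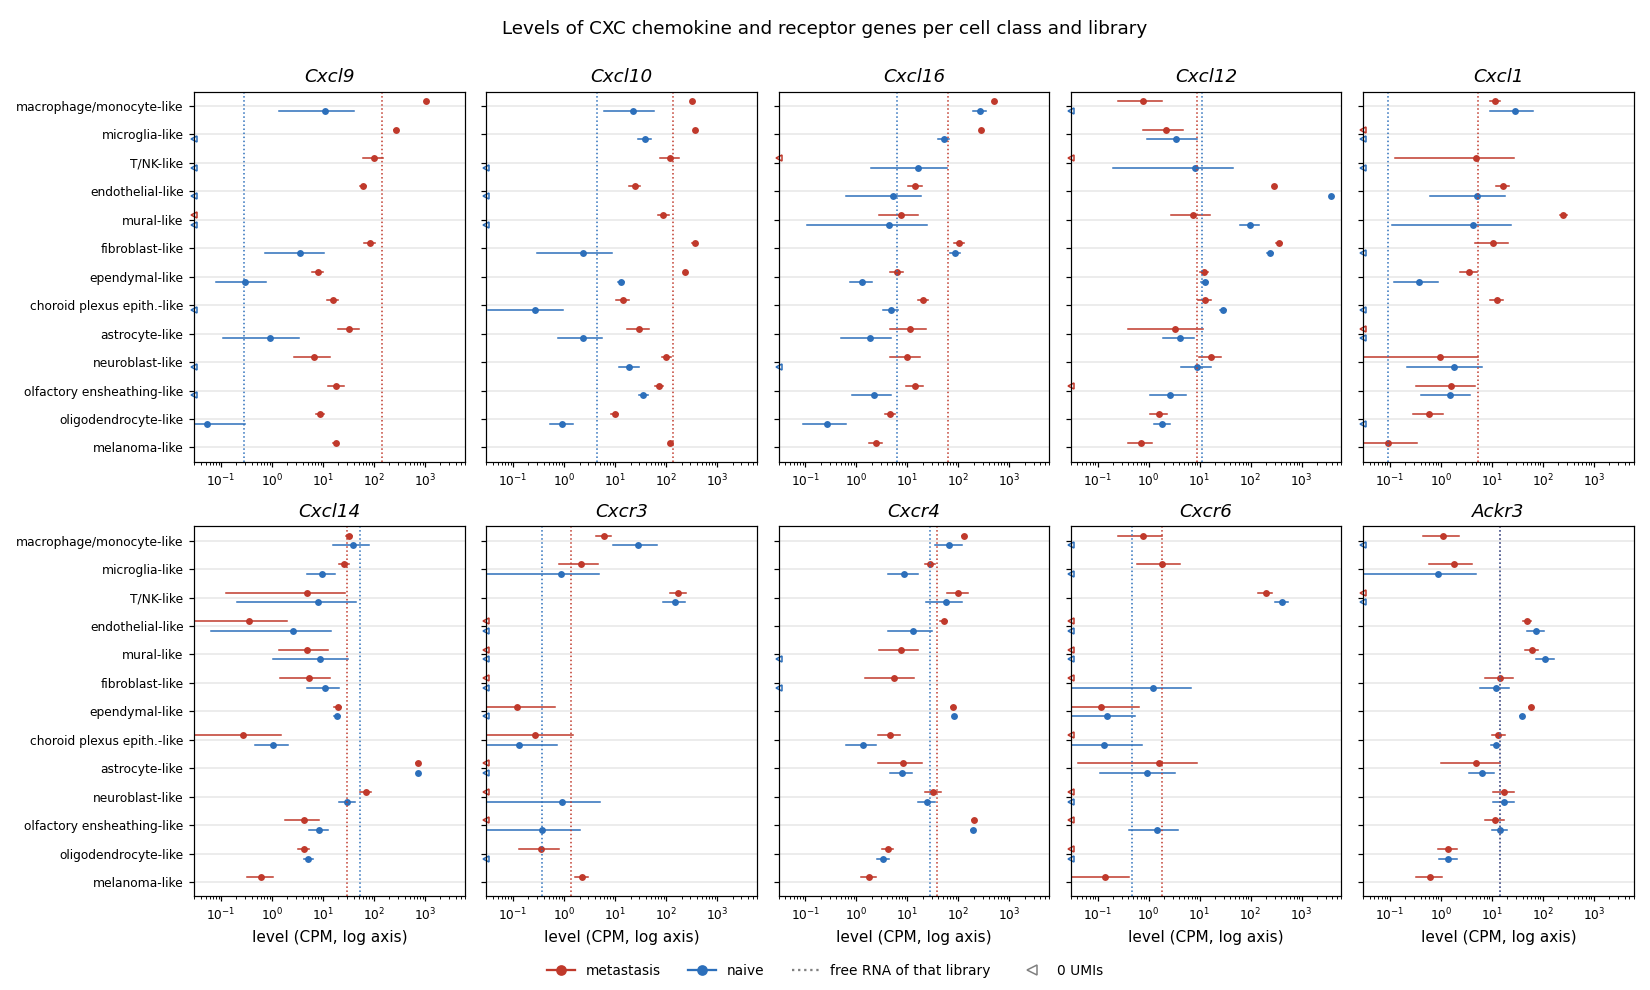
Level of each of the 10 genes (CPM, log axis) in every cell class with at least 50 cells, metastasis and naive as separate symbols with 95% counting intervals and the free RNA level of each library marked. Cxcl9 stood above free RNA in macrophage/monocyte-like and microglia-like cells of metastasis, Cxcl14 in astrocyte-like cells of both libraries, and Cxcr4 in olfactory ensheathing-like cells of both.

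Cxcl9 was a gene of the macrophages and microglia of the metastasis library. Macrophage/monocyte-like cells had 6802 UMIs or 1069 CPM (1044 to 1095) in metastasis (1101 cells) versus 2 UMIs or 11.2 CPM (1.35 to 40.3) in naive (70 cells), for a log2 ratio of 6.58 (4.73 to 9.63). Microglia-like cells had 747 UMIs or 268 CPM (249 to 288) in metastasis (920 cells) and no UMI in naive (633 cells), at least 103-fold higher when naive is set to a floor of 3 UMIs over the class. Free RNA held 142 CPM of Cxcl9 in metastasis versus 0.280 CPM in naive. The other named classes lay below free RNA in metastasis, and the next, T/NK-like cells (98.6 CPM, 60.2 to 152) and fibroblast-like cells (83.3 CPM, 63.8 to 107), could not be ranked between them. After thinning every cell to 1000 UMIs, Cxcl9 was found in 19.1% of macrophage/monocyte-like cells in metastasis versus 1.43% in naive, against 27.5% and 1.43% unthinned, at median depths of 4714 and 2298 UMIs. In oligodendrocyte-like cells (median depths 2747.5 and 2970 UMIs) the thinned shares were 1.03% and 0%, and the unthinned ones 2.54% and 0.0180%.

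The level was carried by few cells. In metastasis, 111 of the 1101 macrophage/monocyte-like cells held 89.3% of the Cxcl9 UMIs of the class. The clusters behind the class also differed between the libraries. In metastasis it was made of cluster 26 (454 cells, with Ms4a7, Gpnmb and Spp1 among its 10 leading genes), cluster 23 (304 cells, Ccl8, Ms4a7 and Pf4), cluster 20 (251 cells, MHC class II genes and Il1b) and cluster 21 (92 cells, MHC class II genes with Mrc1 and Pf4), whereas 56 of the 70 naive cells were in cluster 21. Cxcl9 stood at 1997 CPM in cluster 23, 1459 CPM in cluster 20, 133 CPM in cluster 26 and 67.6 CPM in cluster 21 of metastasis. Cluster 21, the single one of these with at least 50 cells in both libraries, had 14 UMIs in metastasis versus 2 UMIs in naive, 67.6 and 15.6 CPM, with a log2 ratio of 2.12 whose interval just reaches 0 (up to 5.30). The macrophage value of Cxcl9 thus compares mostly different clusters. Among the microglia, 732 of the 747 UMIs fell in cluster 22 (458 cells in metastasis and 8 in naive, with Lpl and Cst7 among its leading genes), at 361 CPM. Clusters 24, 25 and 30, led by homeostatic microglia genes such as P2ry12, had 6, 5 and 4 UMIs in metastasis and none in naive. Macrophage/monocyte markers summed to 5024 CPM in microglia-like cells of metastasis (1 of 14 at 0) versus 301 CPM in naive (5 of 14 at 0). Microglia markers summed to 13579 CPM in metastasis versus 27504 CPM in naive, with none of 11 at 0. The part of these shifts in the microglia values of Cxcl9, Cxcl10 and Cxcl16 was not tested.

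Cxcl10 was broader. Microglia-like cells had 370 CPM (348 to 394) in metastasis versus 38.2 CPM (27.8 to 51.3) in naive, for a log2 ratio of 3.28 (2.84 to 3.75). Fibroblast-like cells had 364 CPM (322 to 410) in metastasis versus 2.39 CPM (0.290 to 8.65) in naive (7.25, 5.38 to 10.3). Macrophage/monocyte-like cells had 316 CPM (303 to 330) in metastasis versus 22.3 CPM (6.08 to 57.2) in naive (3.82, 2.46 to 5.70). All 3 classes stood above free RNA in metastasis, which held 139 CPM, against 4.49 CPM in naive. Ependymal-like cells followed with 229 CPM (219 to 239) in metastasis versus 13.1 CPM (11.2 to 15.2) in naive (4.13, 3.90 to 4.36). In metastasis the intervals of microglia-like and fibroblast-like cells overlapped, as did those of fibroblast-like and macrophage/monocyte-like cells. In thinned cells Cxcl10 was found in 11.3% of microglia-like cells in metastasis versus 1.42% in naive, and in 1.03% and 0.0722% of oligodendrocyte-like cells. Unthinned, the microglia-like shares were 17.9% and 2.53%, at median depths of 1889 and 1708 UMIs.

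Single cells weighed on several of these values. In fibroblast-like cells 137 of the 271 metastasis UMIs came from 1 cell, and the level was 180 CPM without it. In naive ependymal-like cells 131 of 175 UMIs came from 1 cell, and the level was 3.29 CPM without it. Nearly all fibroblast UMIs lay in cluster 17, led by Dcn and Lum, at 859 CPM in metastasis versus 11.5 CPM in naive, and cluster 18 had 5 UMIs and none.

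The ependymal values rested on few cells as well. Ependymal-like cells line the ventricles and carry cilia. In metastasis 11.6% of them had a Cxcl10 UMI (6.93% thinned), against 0.672% in naive (0.275% thinned), and the tenth of cells with the most held 98.0% of the UMIs. Cluster 1 accounted for 1748 of the 1926 metastasis UMIs and held 924 cells of metastasis and 15 of naive, with Cxcl10 in 207 of the 924. Where both libraries had many cells, Cxcl10 was higher in metastasis in each of 3 clusters: cluster 12 had 183 CPM in metastasis (375 cells) versus 7.20 CPM in naive (430 cells), with log2 ratios of 4.67 there, 3.16 in cluster 13 and 2.14 in cluster 14. Clusters 13 and 14 lay below free RNA in metastasis (139 CPM, against 4.49 CPM in naive). In thinned cells of metastasis only 5 of 576 in cluster 13 and 9 of 505 in cluster 14 had Cxcl10. The part of free RNA in these cluster ratios was not tested. Macrophage/monocyte markers summed to 236 CPM in ependymal-like cells of metastasis (0 of 14 markers at 0) and 13.5 CPM in naive (5 of 14 at 0), and neutrophil markers to 252 CPM (1 of 9 at 0) and 3.14 CPM (3 of 9 at 0). Their part in the Cxcl10 difference was not tested.

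In the immune clusters Cxcl10 followed the split of Cxcl9 less closely. It stood at 595 CPM in cluster 20, 416 CPM in cluster 23, 149 CPM in cluster 26 and 82.1 CPM in cluster 21 of metastasis, and at 479 CPM in microglia cluster 22. In homeostatic cluster 24 it had 62.3 CPM in metastasis versus 12.8 CPM in naive (log2 ratio 2.29, 1.05 to 3.73). Cluster 25 had 53.7 and 24.4 CPM (1.14, -0.17 to 2.46) and cluster 30 had 212 and 153 CPM (0.48, -0.48 to 1.44), so these did not differ beyond counting error. Over the microglia clusters with at least 50 cells in both libraries the log2 ratio of Cxcl10 was 1.28. In thinned macrophage/monocyte-like cells of metastasis, Cxcl10 was found in 28.1% of the cells with Cxcl9 and in 5.95% of those without it, with 59 cells holding both.

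Melanoma-like cells, of which metastasis had 711, held 2571 Cxcl10 UMIs in 48.5% of cells (7.45% thinned), or 121 CPM (116 to 126). This is below free RNA, but free RNA made up a fraction of at most 0.0143 of their UMIs by the genes they should lack. Their 378 Cxcl9 UMIs included 182 in 1 cell. Neuroblast-like cells had 101 CPM of Cxcl10 in metastasis versus 19.0 CPM in naive, where 20 of 21 UMIs came from 1 cell. Olfactory ensheathing-like cells, glia of the olfactory nerve, had 72.9 CPM in metastasis versus 35.6 CPM in naive, where 51 of 96 UMIs came from 1 cell.

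**Figure D2:**
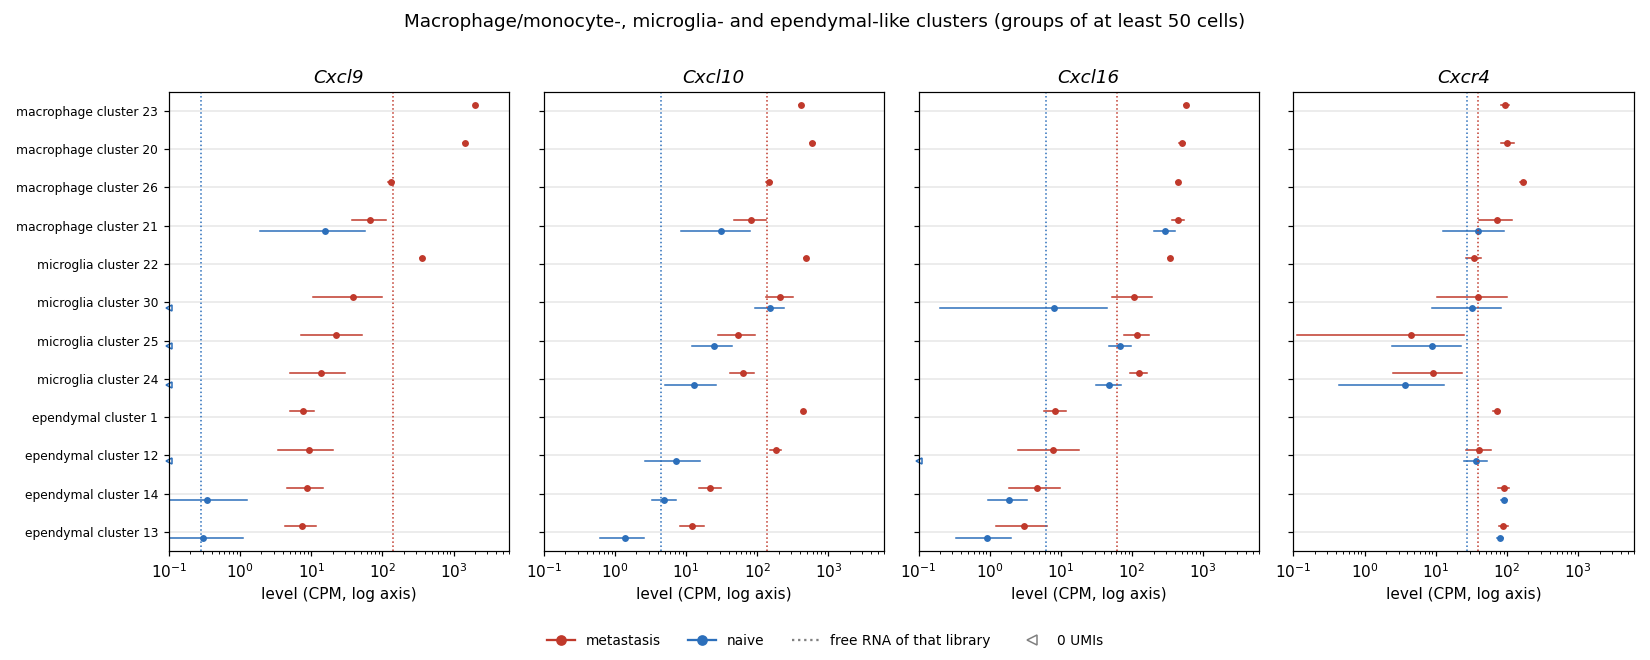
Levels of Cxcl9, Cxcl10, Cxcl16 and Cxcr4 (CPM, log axis) in the single clusters of macrophage/monocyte-like, microglia-like and ependymal-like cells, metastasis and naive as separate symbols with 95% counting intervals, where a library had at least 50 cells, and dotted lines at free RNA. Cxcl9 reached 1997 CPM in cluster 23 and 1459 CPM in cluster 20 of metastasis, against 133 CPM in cluster 26, while Cxcl16 lay between 437 and 565 CPM in all 4 macrophage clusters of metastasis.

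Cxcl16 was highest in the same myeloid classes but was also present in naive. Macrophage/monocyte-like cells had 3176 UMIs or 499 CPM (482 to 517) in metastasis versus 47 UMIs or 262 CPM (193 to 349) in naive, for a log2 ratio of 0.93 (0.51 to 1.38). Microglia-like cells had 281 CPM (262 to 302) in metastasis versus 51.3 CPM (39.0 to 66.1) in naive, for a log2 ratio of 2.46 (2.07 to 2.86). Fibroblast-like cells had 105 and 87.4 CPM and did not differ beyond counting error (0.26, -0.22 to 0.74). Free RNA held 62.2 CPM in metastasis versus 6.17 CPM in naive, and every other named class lay below it in metastasis. The gene was spread more evenly than Cxcl9: the tenth of macrophage/monocyte-like cells with the most held 35.1% of its UMIs in metastasis. Thinned shares were 36.3% in metastasis and 25.7% in naive (78.2% and 44.3% unthinned), against 0.564% and 0.0361% in oligodendrocyte-like cells.

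The Cxcl16 level in macrophages changed little from cluster to cluster in metastasis, at 565 CPM in cluster 23, 509 CPM in cluster 20, 444 CPM in cluster 21 and 437 CPM in cluster 26. In cluster 21 it was 444 CPM in metastasis versus 288 CPM in naive (log2 ratio 0.63, 0.06 to 1.22). Microglia cluster 22 had 342 CPM in metastasis. Homeostatic cluster 24 had 125 CPM in metastasis versus 47.4 CPM in naive (1.39, 0.69 to 2.13), and cluster 25 had 116 and 68.7 CPM (0.76, -0.05 to 1.56).

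Cxcl12 was the endothelial gene of the set. Endothelial-like cells had 835 UMIs or 291 CPM (271 to 311) in metastasis (222 cells) versus 1493 UMIs or 3820 CPM (3629 to 4019) in naive (117 cells), 13.1-fold lower in metastasis with a log2 ratio of -3.72 (-3.84 to -3.59). This class was made of different clusters in either library. Cluster 15, led by the capillary genes Ly6c1, Flt1 and Slco1a4, held 57 cells of metastasis and all 117 of naive. Cluster 11, led by Igfbp3, Egfl7 and Emcn, held 165 cells of metastasis and none of naive.

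Within cluster 15 Cxcl12 had 3128 CPM in metastasis versus 3820 CPM in naive, for a log2 ratio of -0.29 (-0.42 to -0.16), and it was found in 78.9% and 78.6% of thinned cells. Cluster 11 had 147 Cxcl12 UMIs or 55.4 CPM. Over the class the thinned shares were 23.9% in metastasis and 78.6% in naive (38.3% and 88.9% unthinned, median depths 5361.5 and 2591 UMIs), against 0.169% and 0.180% in oligodendrocyte-like cells. With each cell weighted equally the log2 ratio of the class was -1.97. The summed endothelial markers were 9421 CPM in metastasis versus 25515 CPM in naive, with 0 and 1 of 12 markers at 0.

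Cxcl12 was also found in other classes. Fibroblast-like cells had 361 CPM (319 to 407) in metastasis versus 243 CPM (211 to 279) in naive, for a log2 ratio of 0.57 (0.30 to 0.84), so that they stood above endothelial-like cells in metastasis and below them in naive. Within cluster 17 the values were 784 and 770 CPM (0.03, -0.28 to 0.34), and within cluster 18 they were 59.8 and 104 CPM (-0.80, -1.51 to -0.13). Mural-like cells, the pericytes and smooth muscle of vessels, had 6 UMIs or 7.45 CPM in metastasis versus 23 UMIs or 99.2 CPM in naive (-3.73, -5.32 to -2.40), which puts metastasis below its free RNA of 8.71 CPM. Choroid plexus epithelium-like cells had 12.7 CPM in metastasis versus 28.4 CPM in naive (-1.16, -1.64 to -0.70), and ependymal-like cells 12.2 and 12.7 CPM (-0.05, -0.41 to 0.32).

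Cxcl1 was highest in mural-like cells of metastasis. They had 205 UMIs or 254 CPM (221 to 292) in metastasis (141 cells) versus 1 UMI or 4.31 CPM (0.109 to 24.0) in naive (101 cells), for a log2 ratio of 5.88 (3.39 to 11.2). A UMI was seen in 28.4% of the metastasis cells and 0.990% of the naive cells, or 10.6% and 0% after thinning, at median depths of 3447 and 1553 UMIs. With every cell thinned, naive had no UMI, so the log2 ratio of 2.33 is a lower bound with naive set to the floor of 3 UMIs. In oligodendrocyte-like cells the thinned shares were 0.0940% and 0%. Free RNA held 5.32 CPM in metastasis versus 0.0935 CPM in naive. Mural markers summed to 18439 CPM in metastasis versus 27461 CPM in naive with none of 12 at 0. Markers of other classes also differed in these cells. Microglia markers summed to 3764 CPM in metastasis (1 of 11 at 0) versus 966 CPM in naive (0 of 11 at 0), macrophage/monocyte markers to 577 CPM (6 of 14 at 0) and 108 CPM (11 of 14 at 0), fibroblast markers to 1559 and 263 CPM (2 of 10 at 0 in both) and cycling markers to 2184 CPM (0 of 8 at 0) and 77.6 CPM (4 of 8 at 0). Oligodendrocyte markers summed to 2649 CPM in metastasis versus 14267 CPM in naive, with none of 12 at 0. Their part in the Cxcl1 value was not tested.

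Other sources of Cxcl1 were small. Choroid plexus epithelium-like cells had 47 UMIs or 12.5 CPM in metastasis and none in naive, at least 31.3-fold higher, with 22 UMIs in 1 cell. Endothelial-like cells had 16.7 CPM in metastasis versus 5.12 CPM in naive (1.71, -0.22 to 4.79). Macrophage/monocyte-like cells had 75 UMIs or 11.8 CPM in metastasis versus 5 UMIs or 27.9 CPM in naive (-1.24, -2.53 to 0.42), and the interval includes 0.

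**Figure D3:**
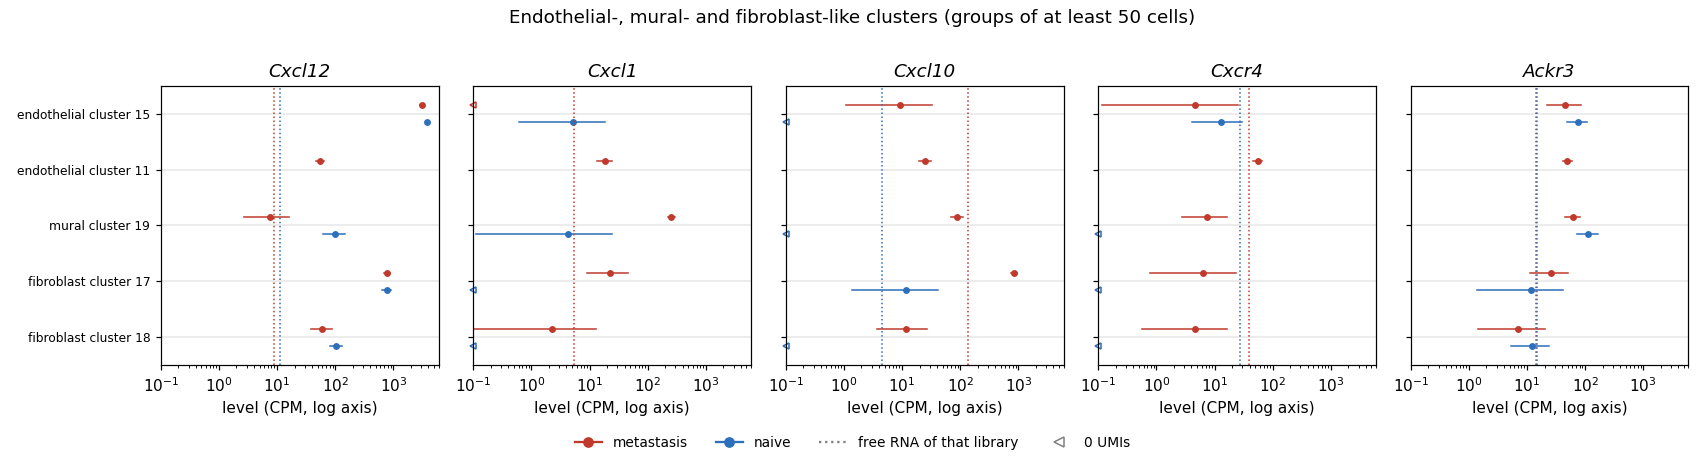
Levels of Cxcl12, Cxcl1, Cxcl10, Cxcr4 and Ackr3 (CPM, log axis) in the clusters of endothelial-like, mural-like and fibroblast-like cells, metastasis and naive as separate symbols with 95% counting intervals, where a library had at least 50 cells, and dotted lines at free RNA. Cxcl12 stood at 3128 CPM in metastasis versus 3820 CPM in naive in endothelial cluster 15 but at 55.4 CPM in cluster 11, and Cxcl1 at 254 CPM in metastasis versus 4.31 CPM in naive in mural-like cells.

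Cxcl14 was highest in astrocytes, where the libraries did not differ beyond counting error. Astrocyte-like cells had 447 UMIs or 728 CPM (663 to 799) in metastasis (340 cells) versus 1589 UMIs or 736 CPM (699.985 to 773) in naive (1057 cells), for a log2 ratio of -0.01 (-0.17 to 0.14). The ratio was -0.66 with each cell named by its own marker UMIs and -0.31 at a clustering resolution of 2, both outside this interval. Thinned shares were 42.9% in metastasis and 47.1% in naive (60.6% and 63.7% unthinned, median depths 1652 and 1805 UMIs), against 0.376% and 0.523% in oligodendrocyte-like cells. The tenth of cells with the most held 36.5% of UMIs in metastasis and 35.4% in naive. The lower value over all kept cells thus stands beside near-equal levels in astrocyte-like cells, of which metastasis had fewer. The next class was neuroblast-like cells, the young neurons of the olfactory route, at 68.9 CPM in metastasis versus 29.8 CPM in naive (1.21, 0.59 to 1.85), with naive below its free RNA of 54.5 CPM.

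The receptors Cxcr3 and Cxcr6 had their highest levels in T/NK-like cells, a small class of 113 cells in metastasis and 74 in naive. By UMIs, most Cxcr3 of metastasis lay outside this class. Cxcr3 had 35 UMIs or 173 CPM (120 to 240) in metastasis versus 18 UMIs or 146 CPM (86.4 to 230) in naive, for a log2 ratio of 0.24 (-0.62 to 1.15). Cxcr6 had 40 UMIs or 197 CPM (141 to 268) in metastasis versus 51 UMIs or 413 CPM (308 to 543) in naive, for a log2 ratio of -1.07 (-1.70 to -0.44). Cxcr6 was thus the lower receptor in metastasis, while Cxcr3 did not differ beyond counting error. Thinned shares were 15.9% in metastasis and 12.2% in naive for Cxcr3 and 12.4% and 29.7% for Cxcr6, at median depths of 1476 and 1439.5 UMIs. In oligodendrocyte-like cells they were 0.0376% and 0% for Cxcr3 and 0% in both libraries for Cxcr6. The whole-library excess of Cxcr3 in metastasis also included 38 UMIs of macrophage/monocyte-like cells (5.98 CPM in metastasis versus 27.9 CPM in naive, -2.22, -3.57 to -0.52) and 47 UMIs of melanoma-like cells (2.21 CPM).

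Cxcr4, the receptor of Cxcl12, was highest in olfactory ensheathing-like cells, where the libraries did not differ beyond counting error. These had 384 UMIs or 202 CPM (182 to 223) in metastasis (949 cells) versus 516 UMIs or 191 CPM (175 to 209) in naive (1159 cells), for a log2 ratio of 0.07 (-0.12 to 0.27). With each cell named by its own marker UMIs the ratio turned to -0.51, outside this interval. Thinned shares were 17.3% in metastasis and 17.0% in naive (30.1% and 32.5% unthinned, median depths 1767 and 2127 UMIs), against 0.451% and 0.433% in oligodendrocyte-like cells. The 2 clusters of the class differed in the same way in both libraries: cluster 4, led by Npy, had 284 CPM in metastasis versus 281 CPM in naive, and cluster 5, led by Fabp7, had 87.6 and 87.2 CPM.

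Elsewhere Cxcr4 differed by class. Macrophage/monocyte-like cells had 126 CPM (118 to 135) in metastasis versus 67.0 CPM (34.6 to 117) in naive (0.91, 0.10 to 1.87). In metastasis cluster 26 stood at 170 CPM, against 102 CPM in cluster 20 and 93.0 CPM in cluster 23. Cluster 21 had 72.5 CPM in metastasis versus 38.9 CPM in naive (0.90, -0.64 to 2.71), which is within counting error. Ependymal-like cells had 77.5 and 82.2 CPM (-0.08, -0.23 to 0.06). Endothelial-like cells had 147 UMIs or 51.2 CPM in metastasis versus 5 UMIs or 12.8 CPM in naive (1.999, 0.74 to 3.64), and 146 of the 147 UMIs were in cluster 11, which naive lacks. Thinned, these shares were 4.05% in metastasis and 1.71% in naive.

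Ackr3, the scavenger of Cxcl12, was lower in mural-like and higher in ependymal-like cells of metastasis. Mural-like cells had 60.8 CPM (45.0 to 80.4) in metastasis versus 112 CPM (73.2 to 164) in naive, for a log2 ratio of -0.88 (-1.60 to -0.14). Ependymal-like cells had 58.1 CPM (53.1 to 63.5) in metastasis versus 38.4 CPM (35.1 to 41.9) in naive (0.60, 0.42 to 0.78). Endothelial-like cells had 49.1 CPM (41.3 to 57.9) in metastasis versus 74.2 CPM (49.7 to 107) in naive (-0.60, -1.18 to 0.03). The intervals of mural-like cells overlapped both others in metastasis, and in naive those of mural-like and endothelial-like cells overlapped while ependymal-like cells stood below both. The ependymal difference was not alike in the clusters: 39.0 CPM in metastasis versus 15.6 CPM in naive in cluster 12 (1.32, 0.30 to 2.41), 46.2 and 43.6 CPM in cluster 13 (0.08, -0.25 to 0.41) and 46.4 and 36.0 CPM in cluster 14 (0.37, -0.04 to 0.76). Cluster 1, nearly all metastasis, had 72.6 CPM. Thinned shares in mural-like cells were 12.1% in metastasis and 15.8% in naive (27.0% and 19.8% unthinned), the thinned order being that of the CPM. In oligodendrocyte-like cells they were 0.113% and 0.199%.

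**Figure D4:**
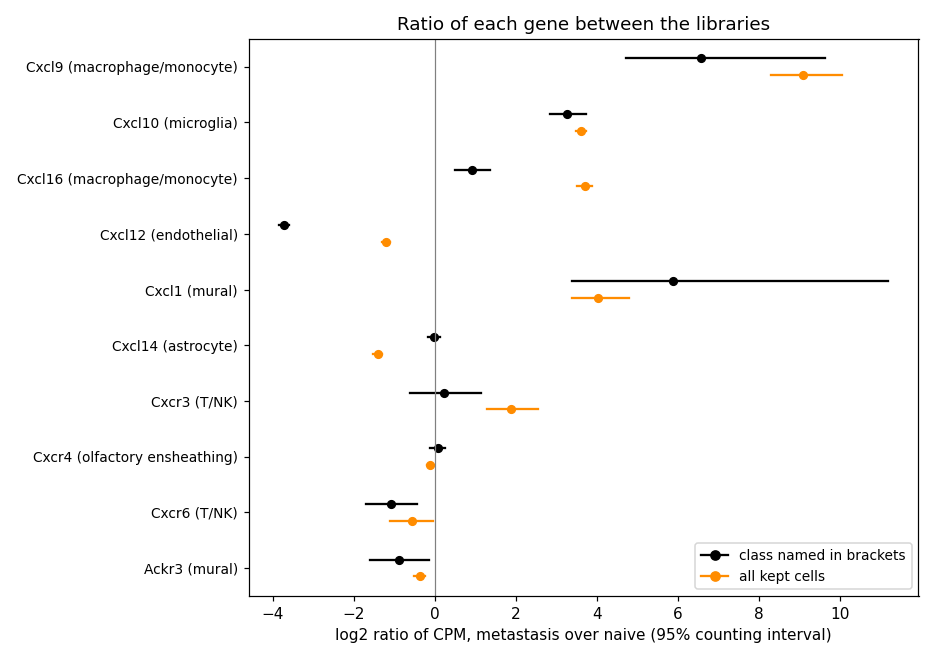
Log2 ratio of CPM, metastasis over naive, with 95% counting intervals, for the 10 genes in their leading classes and over all kept cells. Cxcl9 reached 6.58 in macrophage/monocyte-like cells and Cxcl1 5.88 in mural-like cells, Cxcl12 was at -3.72 in endothelial-like cells, and the intervals of Cxcl14 (-0.01) and Cxcr4 (0.07) in classes named by cluster include 0.

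The members were also counted class by class among genes with at least 20 UMIs over both libraries, and called higher or lower past 2-fold, by size alone and with no test. In microglia-like cells 5 of 5 members counted were higher (Cxcl9, Cxcl10, Cxcl16, Cxcl14 and Cxcr4), beside 6.26% of all genes higher and 11.4% lower, and Cxcl14 and Cxcr4 lay below free RNA in metastasis. In macrophage/monocyte-like cells 2 of 7 were higher (Cxcl9 and Cxcl10) and 2 lower (Cxcl1 and Cxcr3), beside 8.99% and 21.9% of all genes. In ependymal-like cells 4 of 8 were higher (Cxcl9, Cxcl10, Cxcl16 and Cxcl1) and none lower, beside 3.78% and 1.23%, and of these Cxcl10 alone was above free RNA. In endothelial-like cells 5 of 7 were higher (Cxcl9, Cxcl10, Cxcl16, Cxcl1 and Cxcr4) and Cxcl12 was lower, beside 17.3% and 17.1%, with Cxcl9, Cxcl10 and Cxcl16 below free RNA.

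The other 8 classes gave the following counts. In fibroblast-like cells 2 of 5 were higher (Cxcl9, below free RNA, and Cxcl10) and none lower, beside 6.01% and 2.58%. In astrocyte-like cells 2 of 4 were higher (Cxcl9 and Cxcl10), both below free RNA, and none lower, beside 2.44% and 3.37%. In olfactory ensheathing-like cells 3 of 6 were higher (Cxcl9, Cxcl10 and Cxcl16), all below free RNA, and Cxcl14 was lower, beside 2.47% and 1.31%. In T/NK-like cells 2 of 5 were higher (Cxcl9 and Cxcl10), both below free RNA, and Cxcr6 was lower, beside 7.00% and 3.16%. In choroid plexus epithelium-like cells 5 of 7 were higher (Cxcl9, Cxcl10, Cxcl16, Cxcl1 and Cxcr4) and Cxcl12 was lower, beside 6.21% and 0.744%, and of the 5 only Cxcl1 was above free RNA in metastasis. In oligodendrocyte-like cells 3 of 7 were higher (Cxcl9, Cxcl10 and Cxcl16), all below free RNA, and none lower, beside 4.92% and 1.28%. In neuroblast-like cells 2 of 5 were higher (Cxcl10, below free RNA, and Cxcl14) and none lower, beside 3.74% and 2.92%. In mural-like cells 2 of 4 were higher (Cxcl10, below free RNA, and Cxcl1), beside 22.8% of all genes, and Cxcl12 was lower, as were 1149 of the 7169 genes counted.

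Over these 12 classes and the same UMI minimum, 31 of 70 pairs of a member and a class stood above free RNA in metastasis, beside 40.3% of all pairs of a gene and a class, and 23 of 70 in naive, beside 47.1%. The share in metastasis is near that of all genes. Without the minimum the counts were 31 in metastasis and 24 in naive, and with free RNA taken from barcodes of 10 to 100 UMIs they were 18 and 13.

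Genes around the members were taken from lists of the same pathway and counted in the same way. The lists were not counted within clusters. As described above, the clusters of macrophage/monocyte-like, microglia-like, endothelial-like and ependymal-like cells differed between the libraries. The interferon-gamma axis, whose signal induces Cxcl9 and Cxcl10, had 12 listed genes. In ependymal-like cells 12 were counted, 7 were higher and none lower, beside 3.78% and 1.23% of all genes. The median log2 ratio was 1.51 beside 0.03 over all genes. There Gbp2, an interferon-induced GTPase gene, had 364 CPM in metastasis versus 43.0 CPM in naive (3.08, 2.95 to 3.21). In microglia-like cells 4 of 10 were higher and none lower, beside 6.26% and 11.4% of all genes. Among the higher were Gbp2 (4.15) and Cd274, which encodes PD-L1 (2.35), and the median was 0.06 beside -0.29 over all genes. In macrophage/monocyte-like cells 3 of 11 were higher, among them Gbp2 (4.03), and Ciita, the regulator of MHC class II genes, was lower (-1.53). This stood beside 8.99% and 21.9% of all genes, with a median of 0.05 beside -0.24. These macrophage ratios compare mostly different clusters, as for Cxcl9. In fibroblast-like cells 5 of 8 were higher and none lower, beside 6.01% and 2.58% of all genes, with Gbp2 at 3.03 and a median of 1.30 beside 0.04. Endothelial-like cells, by contrast, had 1 of 9 higher and 2 lower, beside 17.3% and 17.1% of all genes, with a median of -0.65 beside -0.02. Gbp2 was lower there (-1.39, -2.04 to -0.69). Of the 222 endothelial-like cells of metastasis 165 were in cluster 11, which naive lacks. The part of this in the endothelial values was not tested. In the other classes none was lower, and the shares of all genes lower are those given with the members above. Higher were 5 of 9 in choroid plexus epithelium-like (beside 6.21% of all genes), 4 of 8 in T/NK-like (7.00%) and 4 of 9 in oligodendrocyte-like cells (4.92%). The counts were 3 of 6 in mural-like (22.8%), 3 of 7 in neuroblast-like (3.74%), 3 of 10 in olfactory ensheathing-like (2.47%) and 1 of 6 in astrocyte-like cells (2.44%). Ifng, the interferon-gamma gene, named after its values were seen, had 75 UMIs over all kept cells of metastasis versus 67 UMIs in naive. In T/NK-like cells it had 42 UMIs or 207 CPM in metastasis versus 47 UMIs or 381 CPM in naive.

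The remaining CXC ligands, 9 genes, did not all go with Cxcl9 and Cxcl10. In macrophage/monocyte-like cells 4 were counted, none was called higher and 2 were lower, beside 8.99% of all genes higher and 21.9% lower. Cxcl2, a neutrophil attractant, had 552 CPM in metastasis versus 1887 CPM in naive (-1.77, -1.93 to -1.61), and Cxcl13, a B-cell attractant, 37.1 and 145 CPM (-1.97, -2.56 to -1.32). As for Cxcl9, these values compare mostly different clusters, since 56 of the 70 naive cells were in cluster 21. Cxcl11, also among the 4 counted, had 58 UMIs in metastasis and none in naive. Its ratio there is only a bound set by the floor for naive, which cannot say whether it was higher. Over all kept cells Cxcl11 had 148 UMIs in metastasis versus 17 UMIs in naive. In microglia-like cells 2 of 3 were higher, beside 6.26% of all genes, Cxcl13 (73 UMIs in metastasis and none in naive) and Pf4, platelet factor 4 (2.81). Pf4 is also a macrophage/monocyte marker used to name the clusters, so its class values are not independent of the names. In ependymal-like cells 3 of 3 were higher, beside 3.78%, among them Cxcl11 (29 UMIs in metastasis versus 1 UMI in naive), and all 3 lay below free RNA in metastasis. Of the 6 further receptors, endothelial-like cells had 3 counted and 3 higher, beside 17.3% of all genes. Ackr1, a chemokine scavenger of venules, had 62 UMIs in metastasis and none in naive, while the intervals of Ackr2 (-0.07 to 4.93) and Cxcr2 (-1.20 to 6.82) include 0. The part of cluster 11, which naive lacks, in these values was not tested.

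The NF-kB axis, which induces Cxcl1 and Cxcl2, had 11 listed genes. In macrophage/monocyte-like cells 1 of 10 was higher and 4 were lower, among them the inhibitor gene Nfkbia (-2.01) and Il1b (-1.15), beside 8.99% and 21.9% of all genes. These ratios too compare mostly different clusters. In microglia-like cells 2 of 10 were higher, beside 6.26% of all genes, the cytokine genes Il1b (286 CPM in metastasis versus 11.3 CPM in naive, 4.66) and Tnf (1.10), and none was lower. In mural-like cells, where Cxcl1 was highest, the furthest from a ratio of 1 were Rela (2.17, 0.54 to 4.50) and Nfkbiz (-2.59, -3.61 to -1.62). Of the 7 genes for ligand processing, Mmp12, a macrophage elastase, had 421 UMIs in macrophage/monocyte-like and 80 UMIs in microglia-like cells of metastasis and none in naive. The 9 receptor signalling genes had 0 higher and 0 lower in microglia-like cells, beside 6.26% and 11.4% of all genes. In macrophage/monocyte-like cells 0 were higher, beside 8.99%, and 2 were lower, where the share lower is near the 21.9% of all genes. For the lists after the interferon-gamma axis only some classes are described.

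The pattern of each gene over 24 profiles, the 12 classes in each library, was set against 13898 genes by Pearson's r of log2(CPM + 10). The profiles share libraries and depth, so r is a description. Those most like Cxcl9 were Il18bp (r = 0.883), Ly6i and Gpnmb, and those most like Cxcl10 were Iigp1 (0.755), Irgm2 and Trpm1. Trpm1 is on the melanoma marker list, while melanoma-like cells are not among the profiles. The part of carried-over melanoma RNA in this likeness was not tested. Zmynd15, which overlaps Cxcl16, was among the 3 most like it (0.894), after Hexa and H2-DMb1. Jcad was most like Cxcl12 (0.953), Actg2 most like Cxcl1 (0.871), St6galnac5 most like Cxcl14 (0.946), Kcnn4 most like Cxcr4 (0.880) and Oaz2 most like Ackr3 (0.916). Klrd1 was most like Cxcr3 (0.996) and Cd8a most like Cxcr6 (0.996).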

How the data were processed

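The deposited files hold raw UMI counts per gene and barcode, unfiltered and not normalized per the file contents, from 3′ v3 droplet libraries with about 10000 cells loaded per condition per the labels' protocols. STARsolo and the build GRCm38 are named in the submitters' processing notes, with no settings or annotation in the sources used here. GENCODE M21 held 54349 of the 55401 gene identifiers in the same version.

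Barcodes needed at least 1000 UMIs, 500 genes and at most 20% mitochondrial UMIs (13937 in metastasis and 14301 in naive passed the first limit, the second removed 83 and 171 and the third 109 and 135). Doublets above a scrublet score of 0.25 (expected rate 0.06, seed 0) were removed, 463 (3.37%) in metastasis and 685 (4.89%) in naive, since the automatic limit marked 0 and 855. Cells of both libraries were clustered together in scanpy 1.11.5 (log of UMIs scaled to 10000, 2000 variable genes, 30 components, 15 neighbours, Leiden resolution 1), without the 67 chemokine and receptor genes. Immune clusters were clustered again. No member was on the marker lists used for naming, but Pf4 was on the macrophage/monocyte list. Clusters took the name of a cell type, as "like" it, from 20 marker lists. This took a median log2 fold of 0.8 or more, 3 or more markers at 2-fold, the most markers of any list among the 10 leading genes, and a second list under 0.5 of the first (neuron beside neuroblast excepted). Clusters of low depth with no such leading marker, and non-immune ones among the immune cells clustered again, took no name. These limits were chosen with the clusters in view, and 2 clusters stayed unnamed, with 1.75% of metastasis cells and 0.361% of naive cells.

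UMIs were summed per class and library and given as CPM with exact Poisson intervals, shares have exact Clopper-Pearson intervals, and ratios have exact conditional binomial intervals at 95%. Sums of 0 took a floor of 3 UMIs. PCR duplicates are collapsed by UMI, but cells of a pool are not independent animals. Thinning drew 1000 UMIs per cell (seed 0). Free RNA was summed over 59747 barcodes in metastasis and 61597 in naive (10901989 and 10697779 UMIs). The ratio calculation was tested on simulated counts. Named genes were all 10 members, up to 4 members of a pathway list per class that lay furthest from a ratio of 1, and the 3 genes most like each member. One gene that this rule names is not reported here. The members, the 6 pathway lists (54 genes), the marker lists and the rules were chosen with earlier results of these data known. Alternatives varied the barcode limits, doublet removal, resolution, naming, scaling, weighting, depth, free RNA and single cells. Python 3.11.15, numpy 2.4.6, scipy 1.17.1, anndata 0.12.19, scikit-learn 1.9.0, python-igraph 0.11.9 and matplotlib 3.10.9 were used.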

Additional observations from a re-analysis of the deposited data

Results flagged for a closer look

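Over whole classes, Cxcl12 ran in opposite directions in 2 classes of the vessel wall and meninges. Its log2 ratio was 0.57 (0.30 to 0.84) in fibroblast-like cells and -3.73 (-5.32 to -2.40) in mural-like cells, a difference of 4.31 that was not tested, since each condition had 1 library. The mural value rests on 6 UMIs in metastasis and 23 UMIs in naive. The fibroblast rise was in neither of its clusters: cluster 17 did not differ beyond counting error, and cluster 18 was lower in metastasis. Cluster 17, the higher in Cxcl12, held 104 cells of metastasis and 71 of naive, and cluster 18 held 154 and 216. The part of this makeup in the class value was not tested.

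Ackr3 also ran in opposite directions over whole classes, with 0.60 (0.42 to 0.78) in ependymal-like cells and -0.88 (-1.60 to -0.14) in mural-like cells, a difference of 1.48 that was not tested. Of the ependymal clusters with many cells in both libraries, cluster 12 was higher in metastasis, while the intervals of clusters 13 and 14 included 0. Cluster 1 held 924 cells of metastasis and 15 of naive, and its part in the class value was not tested.

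The clusters left without a name carried Cxcl9 and Cxcl16 above free RNA in metastasis. Cxcl9 had 771 UMIs or 594 CPM in metastasis (232 cells) and none in naive (48 cells), at least 33.1-fold higher, a log2 bound of 5.05, and 218 of these UMIs lay in 1 cell. Cxcl16 had 305 UMIs or 235 CPM in metastasis and 4 UMIs or 23.9 CPM in naive, for a log2 ratio of 3.30 (1.93 to 5.18). Most of both lay in cluster 28 (166 cells in metastasis and 25 in naive), which was led by oligodendrocyte genes with macrophage genes as the second list, with 658 Cxcl9 UMIs and 291 Cxcl16 UMIs in metastasis. Its median of 5750 UMIs per cell stood above the 2747.5 UMIs of oligodendrocyte-like cells in metastasis, and its share of doublets was not tested. Cluster 29 (66 and 23 cells), which joined neutrophil and immunoglobulin genes, had 113 Cxcl9 UMIs in metastasis and none in naive.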

How the results depend on the processing

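No paired analysis was possible because each condition was 1 library. Values are log2 ratios of metastasis over naive. Of the ratios and counts recomputed, 187 stayed within their counting interval or 1.5 times of the value reported, 33 moved further and 6 whose interval had left out 0 changed sign. Of values whose interval included 0, the sign changed 3 times, for Cxcl14 in astrocyte-like cells without doublet removal (0.0070) and with free RNA subtracted (0.0083), and for Cxcr4 in olfactory ensheathing-like cells (-0.51). With at least 2000 UMIs per barcode, Cxcl10 in microglia-like cells moved to 4.42, Cxcl16 in macrophage/monocyte-like cells to 1.39 and over all kept cells to 4.09, Cxcl12 in endothelial-like cells to -3.96 and Cxcr3 over all kept cells to 2.79, and Cxcr6 over all kept cells turned to 0.33. No T/NK-like class was named there. With at most 10% mitochondrial UMIs, Cxcl10 in microglia-like cells moved to 3.96. Without doublet removal it moved to 3.80 and Cxcl12 in endothelial-like cells to -3.56. Cxcl14 in astrocyte-like cells moved to -0.31 at resolution 2. With each cell named by its own marker UMIs, Cxcl12 in endothelial-like cells moved to -3.23, Cxcl14 in astrocyte-like cells to -0.66 and Cxcr4 in olfactory ensheathing-like cells to -0.51.

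With the median ratio over genes as the scaling factor, the values over all kept cells moved to 3.76 for Cxcl10, -1.04 for Cxcl12, -1.25 for Cxcl14 and -0.22 for Ackr3, and Cxcr4 turned to 0.046. With each cell weighted equally they moved to 8.05 for Cxcl9, 3.26 for Cxcl16, -0.77 for Cxcl12 and -1.18 for Cxcl14, Cxcr4 turned to 0.22 and Ackr3 to 0.0039, and Cxcl12 in endothelial-like cells moved to -1.97. With each cell thinned to 1000 UMIs they moved to 3.20 for Cxcl16, -0.81 for Cxcl12 and -1.26 for Cxcl14, Cxcr4 turned to 0.15 and Ackr3 to 0.018, while Cxcl12 in endothelial-like cells moved to -1.98. Cxcl1 in mural-like cells became a lower bound of 2.33, since naive had no UMI left. The pairs above free RNA fell to 18 in metastasis and 13 in naive when free RNA came from barcodes with 10 to 100 UMIs.

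The next alternatives were chosen after seeing the data. Without the cell with the most UMIs of the gene, Cxcl10 moved to 3.82 in microglia-like cells and to 3.99 over all kept cells. In clusters with at least 50 cells in both libraries, Cxcl9 in macrophage/monocyte-like cells moved to 2.12, Cxcl10 in microglia-like cells to 1.28 and Cxcl12 in endothelial-like cells to -0.29. Those 3 values rest on fewer cells by construction, and the cause of the other moves was not tested. With genes counted from 1 UMI, or 1 CPM added for the genes most like a member, 39 of 49 secondary counts and percentages were labelled as moved. That label took a change of over 1.5 times or a value of 0 on either side, even where both were 0. Of the genes named as most like a member, 14 were also named with 1 CPM added. Depth limits the naive values of Cxcl9, Cxcl1 and Cxcr3 most, which rest on 12, 19 and 27 UMIs over all kept cells.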
